A study of Ciona robusta with 15 samples.

Results

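The 100 transcripts described here were the abundant transcripts that stood apart in non-regenerating oral siphons of Ciona robusta, a solitary sea squirt. They were chosen from 17745 transcripts by a rule on measured levels. The lowest of the 3 non-regenerating libraries had to be at least 2 times the highest of the other 12 libraries. The non-regenerating mean had to be at least 100 CPM. CPM are counts scaled to a common library size after adjustment of the libraries by the trimmed mean of M-values (TMM). A gap of that size was present in 202 transcripts, of which 102 had a mean under 100 CPM and were not members. Of the 1475 transcripts with a non-regenerating mean of at least 100 CPM, the members were 6.78%.

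Polyadenylated RNA was measured in 15 libraries, 3 from each of 5 groups. These were non-regenerating siphons (NR) and siphons 0 days (D0), 1 day (D1), 3 days (D3) and 8 days (D8) after amputation. All animals were wild-type siblings of about 6 months, anaesthetised before amputation and, over the time course, held in batches at 15 °C. RNA for a library came from a pool of 5 tissue samples, so a value is the average of a pool and p-values measure the spread between pools. What set the NR siphons apart from those of day 0 in handling is not stated in the labels. The libraries held 7039611 to 33413013 counts.

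The oral siphon is the tube through which the animal draws in seawater. It is closed by ring-shaped muscle, shortened by lengthwise muscle, covered by a tunic that holds cellulose, and carries pigmented sensory organs at its rim. After amputation the siphon is rebuilt by wound closure, renewed growth and replacement of these tissues, with progenitor cells supplied in part from the branchial sac. The deposited table names transcripts by Ensembl identifier and does not pair these with genes. The reference table of 21486 genes listed 0 of the 17745, so the function and position of the members are not given here, nor could the tissue be checked against markers.

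Some libraries resembled another stage more than their own label, measured as the root mean square log2 difference over the 15228 tested transcripts that were not members. The library labelled D1 replicate 3 was nearest to D8 replicates 2 and 1 (0.63 and 0.631), and its mean difference was 0.829 from the other D1 libraries and 0.755 from the D8 libraries. The library labelled D8 replicate 3 was nearest to D1 replicate 2 (0.619), with mean differences of 0.921 from the other D8 libraries, 0.781 from D1 and 0.751 from D0. D3 replicate 3 was nearest to D0 replicate 1 (0.643) and D3 replicate 2 to D1 replicate 2 (0.652), while D3 replicate 1 was at least 1.02 from every library. D3 replicate 1 also held the fewest counts, 7039611, and the fewest transcripts with a count, 15296. Whether depth accounts for its distance was not tested. The D0 libraries, D1 replicates 1 and 2, and D8 replicates 1 and 2 were each nearest to a library of their own label, at 0.598 to 0.779. By mean difference, however, D8 replicates 1 and 2 were nearer to D1 (0.734 and 0.743) than to the other D8 libraries (0.756 and 0.764). D1 replicate 2 was nearer to D0 (0.727) than to the other D1 libraries (0.733). The D0 libraries and D1 replicate 1 were nearest to their own label by this measure too.

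Within stages, libraries also stood apart in the members. In the library labelled D1 replicate 3, 82 of the 100 members were above both other D1 libraries, compared with 39.1% of all tested transcripts, and in D1 replicate 2, 71 were below both others, compared with 29.6%. In the library labelled D8 replicate 3, 77 members were below both other D8 libraries, compared with 40.9% of tested transcripts, and in D8 replicate 2, 69 were above both others, compared with 32.9%. D0 replicate 3 was above both other D0 libraries in 68 members, compared with 38.8% of tested transcripts. All libraries were kept under their labels, so each value for day 1, day 3 or day 8 includes a library that resembles another stage. Medians and counts of calls between stages are also given without some of these libraries.

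The members were first described by how much of each library they took up. They held 25.5%, 23.2% and 22.3% of all counts in NR replicates 1, 2 and 3. In the other 12 libraries they held between 2.45% in D0 replicate 1 and 5.64% in D1 replicate 3. The exact (Clopper-Pearson) 95% counting intervals of these 15 shares were no wider than 0.0502 percentage points and cover counting error only. The 2 most counted members alone held 12.5%, 10.3% and 10.1% of the counts in the NR libraries and 0.184% to 1.29% in the others. The other 98 members held 12.2% to 13.0% in NR and 2.26% to 4.35% elsewhere. The NR share was chosen by the rule and is a description.

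**Figure D1:**
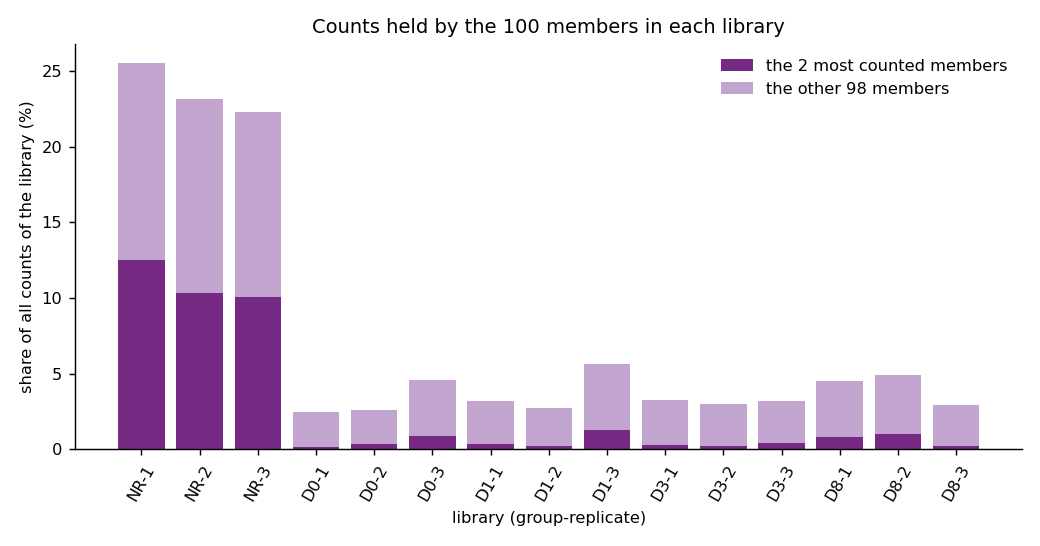
Share of all counts of each library, in percent, held by the 2 most counted members (dark) and the other 98 (light), for the 15 libraries. The 3 non-regenerating libraries hold 22.3% to 25.5% and the other 12 hold 2.45% to 5.64%, with D1 replicate 3, D8 replicate 2, D0 replicate 3 and D8 replicate 1 the highest of these.

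A share this large also bears on the scaling. The TMM factors of the NR libraries were 0.771, 0.797 and 0.665, and those of the other 12 were 0.94 to 1.21, so TMM raised NR levels relative to the others. With library totals alone, 40 transcripts met the rule, and all 40 were among the 100 members. With the size factors of DESeq2, 113 met it, including all 100. In bulk tissue, more cells of a type and more RNA per cell cannot be told apart.

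The gap between the groups ranged widely among the members. The ratio of the lowest NR library to the highest other library had a median of 2.70 and a highest value of 14.1. It was under 3 in 56 members, 3 to 5 in 30, 5 to 10 in 12 and at least 10 in 2. Just inside the limit were ENSCINT00000001942 at 2.002 and ENSCINT00000034214 at 2.003, and just outside were ENSCINT00000035900 at 1.9999 and ENSCINT00000031040 at 1.997. For the mean, ENSCINT00000025965 at 108.7 CPM and ENSCINT00000018498 at 109 CPM were nearest inside, and ENSCINT00000031510 at 99.7 CPM and ENSCINT00000008998 at 98.9 CPM nearest outside. The members' NR means ran from 108.7 to 87994 CPM, with a median of 707 CPM, and 40 members had at least 1000 CPM.

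**Figure D2:**
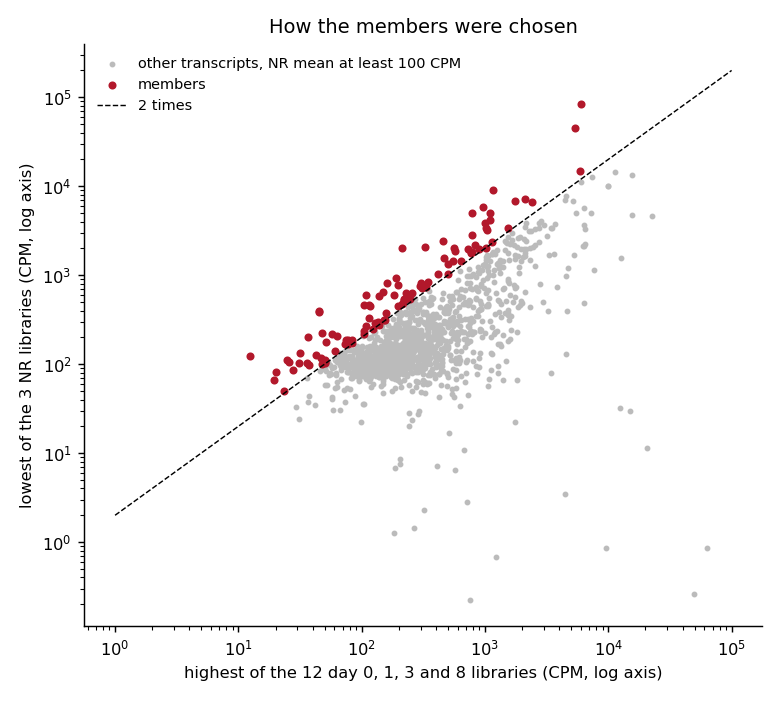
Lowest of the 3 non-regenerating libraries (vertical, CPM, log axis) against the highest of the 12 libraries of days 0, 1, 3 and 8 (horizontal, CPM, log axis) for transcripts with a non-regenerating mean of at least 100 CPM. The 100 members (red) lie on or above the dashed line of 2 times, and most lie near it, with a median ratio of 2.70.

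Because the rule used all 3 NR libraries, it was also applied with each of them left out, and the library left out was then read. Without NR replicate 1 the rule chose 145 transcripts, and 103 of them (71%) showed the 2-fold gap in that library too. Without NR replicate 2 it chose 112, of which 102 (91.1%) showed the gap in the library left out, and without NR replicate 3 it chose 120, of which 100 (83.3%) did. NR replicate 1 was therefore the library in which the gap was most often missing, although 134 of the 145 were still above every other library in it. Leaving out all libraries of a day gave 104 to 114 transcripts, of which 87.7% to 96.2% also lay at least 2-fold above the day left out. By the terms of the rule these were the 100 members themselves, so their number was fixed. Likewise, nearly all transcripts that showed the gap in an NR library left out were members. The percentages therefore reflect how many transcripts were chosen, and are a description.

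The most counted members are given by reads, which depend on transcript length as well as on abundance. ENSCINT00000019271 stood at 91668, 84686 and 87629 CPM in NR replicates 1, 2 and 3. Its D0 libraries held 1201, 2761 and 4782 CPM, its D1 libraries 1869, 1121 and 5999 CPM, its D3 libraries 1674, 1351 and 3007 CPM, and its D8 libraries 3326, 3834 and 1262 CPM. The NR libraries lay close together, with a coefficient of variation of 3.98%, while the other 12 spread 5.35-fold from lowest to highest. The NR mean was 30.2, 29.4, 43.8 and 31.3 times the means of days 0, 1, 3 and 8.

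ENSCINT00000015480 was the second most counted member and varied far more. It stood at 70764, 44576 and 63658 CPM in the NR libraries, at 721, 863 and 3437 CPM at day 0, and at 1654, 757 and 4653 CPM at day 1. At day 3 it held 660, 378 and 1376 CPM, and at day 8 it held 3644, 5397 and 907 CPM. The highest libraries among the 12 were D8 replicate 2 and D1 replicate 3, the lowest was D3 replicate 2, and the spread was 14.3-fold. The groups of days 0, 1, 3 and 8 all overlapped.

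ENSCINT00000008143 was the third most counted and had a smaller and steadier gap. Its NR libraries held 16193, 14673 and 20895 CPM, and its other 12 libraries lay between 3978 CPM in D1 replicate 2 and 5922 CPM in D8 replicate 1, a spread of 1.49-fold. Each D8 library was above each D1 library, and the other stages overlapped. The NR mean was 3.37, 3.76, 3.51 and 3.11 times the means of days 0, 1, 3 and 8.

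The next 7 members by level were ENSCINT00000014813, ENSCINT00000030921, ENSCINT00000026000, ENSCINT00000030292, ENSCINT00000029154, ENSCINT00000002771 and ENSCINT00000026936, with no NR library under 4932 CPM. ENSCINT00000014813 stood at 10469, 9006 and 9241 CPM in NR, and at 348, 350 and 1160 CPM at day 0. It held 449, 289 and 1022 CPM at day 1, 180.4, 149.6 and 558 CPM at day 3, and 618, 752 and 364 CPM at day 8. Replicate 3 was the highest library of days 0, 1 and 3 but the lowest of day 8. ENSCINT00000030921, by contrast, held 8988, 7112 and 11760 CPM in NR and between 1419 and 2111 CPM in each of the other 12.

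The members with the widest gap included some of far lower level. ENSCINT00000029538 stood at 160.7, 124.6 and 194 CPM in NR, at 1.41, 2.09 and 7.18 CPM at day 0, and at 3.91, 2.33 and 12.4 CPM at day 1. Its D3 libraries held 1.63, 0.772 and 4.75 CPM and its D8 libraries 11.4, 12.4 and 3.55 CPM. It was low in all 12 libraries, and its lowest NR value was 10.02 times the highest of them. ENSCINT00000014519 held 501, 386 and 749 CPM in NR, and its other libraries ran from 2.11 CPM in D3 replicate 2 to 45.1 CPM in D1 replicate 3, a spread of 21.4-fold and the widest of the 100 members. ENSCINT00000014671 held 2456, 1997 and 3959 CPM in NR and 37.8 to 212 CPM elsewhere, with ratios of its NR mean to days 0, 1, 3 and 8 of 31.9, 25.7, 53.7 and 24.6. ENSCINT00000035453 held 621, 585 and 392 CPM in NR and 7.82 to 44.8 CPM elsewhere, with D0 replicate 3 the highest.

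Within the NR group the members varied less than tested transcripts did as a whole. Their coefficient of variation over the 3 NR libraries had a median of 21.4%, compared with 32% over all tested transcripts and 25.2% over the 1391 other tested transcripts with a mean of at least 100 CPM over all libraries. The rule favours an even NR group, so this is a description. The steadiest was ENSCINT00000033529, with 827, 829 and 820.4 CPM (0.559%), followed by ENSCINT00000019271. The most variable were ENSCINT00000001474, with 169.5, 615 and 238 CPM (70.3%), and ENSCINT00000032277, with 50.3, 145 and 245 CPM (66.4%). NR replicate 1 was the highest of the 3 in 25 members, NR replicate 2 in 37 and NR replicate 3 in 38.

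From lowest to highest of the 12 day libraries, the level varied less than 2-fold in 21 members and 2-fold to 5-fold in 50. It varied 5-fold to 10-fold in 20 and at least 10-fold in 9. The library labelled D1 replicate 3 was the highest of the 12 in 34 members, D0 replicate 3 in 23 and D8 replicate 2 in 16, and each other library in at most 6. The median member stood at 151 CPM in D1 replicate 3, 127 CPM in D8 replicate 2, 114 CPM in D0 replicate 3 and 107 CPM in D8 replicate 1. The medians of the other 8 libraries were 57.6 to 96.7 CPM. Libraries of the same group were thus far apart, since D0 replicates 1 and 2 had medians of 57.6 and 62.3 CPM.

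**Figure D3:**
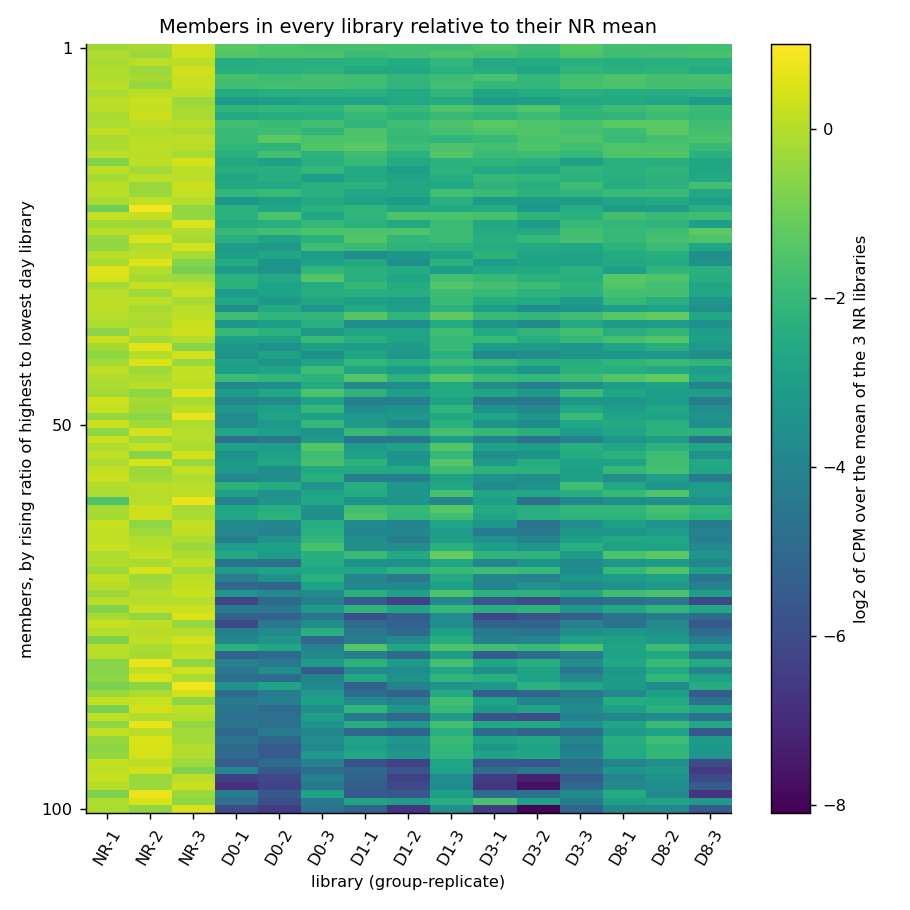
Level of the 100 members (rows, ordered by the ratio of the highest to the lowest of the 12 day libraries) in the 15 libraries (columns), as log2 of CPM over the mean of the 3 non-regenerating libraries. All members are lower in every library of days 0, 1, 3 and 8, and in the lower rows D0 replicate 3, D1 replicate 3, D8 replicate 1 and D8 replicate 2 are lighter than the other libraries of their stage.

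The rule required the lowest NR library to be at least 2 times every day library. A low share of the NR level at every stage, day 0 included, was therefore set by the rule, and the values are a description. The median member stood at 13.4%, 17%, 15.2% and 17.1% of its NR mean in D0, D1, D3 and D8. The fold of the NR mean over the group mean had medians of 7.44, 5.87, 6.56 and 5.84 in the same order, and was at least 10 in 31, 24, 30 and 24 members. Day 0 had the lowest mean of the 4 stages in 44 members, day 3 in 40, day 1 in 9 and day 8 in 7. Without the libraries labelled D1 replicate 3 and D8 replicate 3, the median member stood at 14.4% of its NR mean in D1 and 18.5% in D8, and the lowest mean was at day 0 in 38 members, day 1 in 39, day 3 in 18 and day 8 in 5. Without D0 replicate 3 the D0 median was 11.6%, and day 0 had the lowest mean in 62 members. The order of the stages thus changed with the libraries included, while the medians in these settings all lay between 11.6% and 18.5% of the NR mean. These settings kept the members and the TMM scaling fixed. With library totals alone the NR levels stood less far above the days, as given in the closing section.

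Whether members moved during regrowth was tested between days 0, 1, 3 and 8. The rule limited these libraries relative to NR but did not use their order. The NR libraries also entered the estimate of spread in the fit. In edgeR's quasi-likelihood test with Benjamini-Hochberg adjustment over 15328 transcripts, 0 of the 100 members passed an adjusted p of 0.05 at day 1 against day 0, where 0.0326% of tested transcripts passed. At day 3 and at day 8 against day 0, 0 members passed, and 0% of tested transcripts did. For the mean of days 1, 3 and 8 against day 0, 0 members passed, compared with 0.0326% of tested transcripts. Limma voom also called 0 members in these 4 comparisons, where 0.0261%, 0%, 0% and 0.0718% of tested transcripts were called. An edgeR fit without the NR libraries called 0 members too, where 0%, 0%, 0% and 0.0331% of tested transcripts were called. The lowest adjusted p of a member in that edgeR fit was 0.154, 0.566, 0.135 and 0.0962. By leaving out single libraries, edgeR called 1 member at day 8 without the library labelled D8 replicate 3 (0.474% of tested transcripts) and 5 for the mean without D3 replicate 3 (1.93%). The 3 comparisons with day 0 share its libraries.

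At an unadjusted p under 0.05 in edgeR, 18 members were higher and 0 lower at day 1 than at day 0, against 5.95% and 4.51% of tested transcripts higher and lower. At day 3 there were 11 higher and 0 lower members, against 4.77% and 1.9%, and at day 8 there were 19 higher and 0 lower, against 7.9% and 6.33%. For the mean of the 3 later days there were 21 higher and 0 lower, against 7.9% and 6.77%. DESeq2 called 9 members higher at day 1 (0.844% of the transcripts it gave an adjusted p were called higher), 1 at day 3 (0.17%), 9 at day 8 (1.57%) and 12 for the mean (2.11%). It called 0 members lower, where 0.286%, 0.0262%, 0.994% and 1.03% of transcripts were called lower. Limma voom with library weights called 12 members higher at day 1, 12 at day 3, 35 at day 8 and 23 for the mean, where 1.08%, 1.5%, 12% and 8.25% of tested transcripts were called higher. This fit called 0 members lower, where 1.08%, 1.42%, 13.4% and 11.4% of tested transcripts were called lower. The tools thus differed on whether members passed, while each member called by any of them was above day 0.

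The libraries of day 1 lay wholly above those of day 0 in 18 members and wholly below in 0, where 11.6% and 11.5% of tested transcripts did. At day 3 the counts were 12 and 1 (7.24% and 6.94% of tested transcripts), and at day 8 they were 14 and 2 (11.5% and 10.7%). In 5 members all 3 D0 libraries lay below all 9 later ones, against 2.21% of tested transcripts, and in 0 members they lay above, against 1.84%. Whether these shares differ from the background was not tested.

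The median log2 fold change of the members was 0.25 at day 1 against day 0, -0.04 at day 3 and 0.30 at day 8, beside 0.03, 0.02 and 0.01 over all tested transcripts. The 1391 other tested transcripts with a mean of at least 100 CPM had medians of -0.10, -0.07 and -0.14. Members above day 0 numbered 68, 49 and 72 at days 1, 3 and 8, where 53.1%, 51.4% and 50.5% of tested transcripts were above it. The day 1 median became -0.13 without the library labelled D1 replicate 3, with 45 members above day 0, and 0.46 without D0 replicate 3, with 86 above. The day 3 median became 0.22 without D0 replicate 3, with 68 above. The day 8 median was 0.38 without the library labelled D8 replicate 3, 0.48 without D0 replicate 3 and 0.16 without D8 replicate 2, with 80, 88 and 62 members above. The members share libraries, so these counts are not independent observations.

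**Figure D4:**
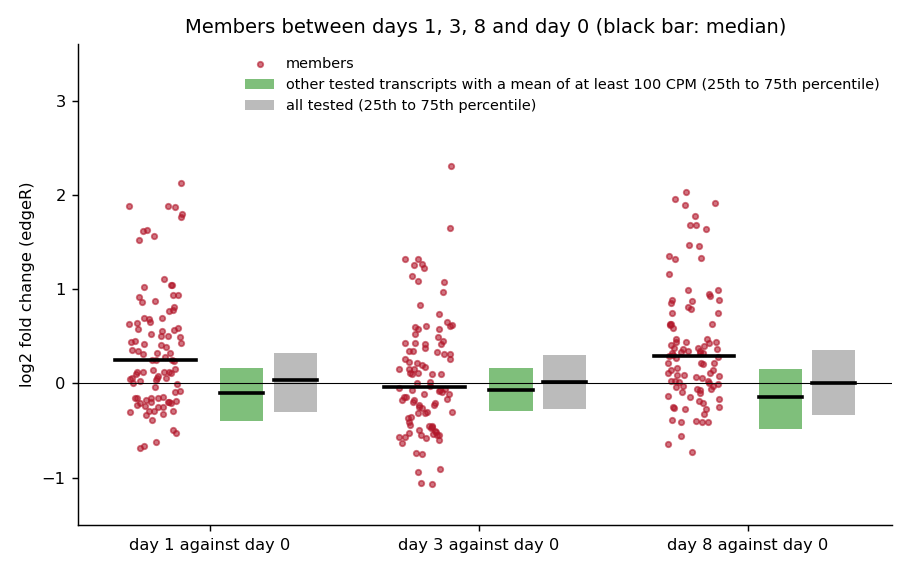
Log2 fold change (edgeR) of each of the 100 members (red points) at days 1, 3 and 8 against day 0, beside the 25th to 75th percentile of the other abundant transcripts (green) and of all tested transcripts (grey), with medians as black bars. The members' medians are 0.25, -0.04 and 0.30, and their highest values lie farther from 0 than their lowest at each day.

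The members described next had the lowest p among those above day 0 in a comparison with it. Low levels at day 0 follow from that choice. ENSCINT00000017159 held 540.2, 721 and 818 CPM in NR, and 67.05, 48.6 and 50.9 CPM at day 0. It stood at 139, 92.9 and 246 CPM at day 1, at 143, 140.5 and 116 CPM at day 3, and at 203, 238 and 91.2 CPM at day 8. All later libraries were above all D0 libraries. At day 8 the log2 fold change was 1.68 ± 0.374 (SE), and edgeR's adjusted p was 0.174, with 0.00165 to 0.648 over 25 alternatives, of which 6 passed. Here and below, the 25 alternatives include sets of libraries chosen after the data were seen.

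ENSCINT00000035153 held 334, 669.6 and 447 CPM in NR, and 17.2, 16.1 and 30.2 CPM at day 0. It stood at 79.6, 44.6 and 109 CPM at day 1, 96.4, 68.3 and 34.3 CPM at day 3, and 54.6, 115 and 68.9 CPM at day 8, again with no overlap between day 0 and later. For days 1, 3 and 8 the log2 fold changes were 1.88 ± 0.449, 1.65 ± 0.446 and 1.91 ± 0.449, and edgeR's adjusted p were 0.227, 0.742 and 0.174. Over 25 alternatives each, these p ran from 0.00839 to 0.718, from 0.0255 to 0.999 and from 0.00263 to 0.648.

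ENSCINT00000002707, which stands in the next row of the table to ENSCINT00000035153, held 1428, 3408 and 2802 CPM in NR, 107.5, 83.2 and 211 CPM at day 0 and 584, 259.7 and 639 CPM at day 1. At day 1 the log2 fold change was 1.88 ± 0.445, and edgeR's adjusted p was 0.227, with 0.00753 to 0.692 over 25 alternatives. D3 replicate 3, at 192 CPM, was the only later library within the range of day 0. Whether this pair shares reads was not tested.

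ENSCINT00000031597 had the largest log2 fold change of any member at day 3, 2.31 ± 0.565 (edgeR adjusted p = 0.631), with 0.0186 to 0.999 over 25 alternatives. It held 296, 439 and 220.1 CPM in NR, 11.6, 5.34 and 15.6 CPM at day 0, 46.1, 36.6 and 59.0 CPM at day 1, 104, 43.0 and 14.9 CPM at day 3, and 40.7, 45.8 and 34.6 CPM at day 8. Day 3 was the most spread, with replicate 3 inside the range of day 0 and replicate 1 above every D8 library.

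DESeq2 called 12 members in at least 1 of the comparisons with day 0. Besides the 4 above they were ENSCINT00000015475, ENSCINT00000017961, ENSCINT00000030512, ENSCINT00000036255, ENSCINT00000024535, ENSCINT00000033044, ENSCINT00000033812 and ENSCINT00000034861, which were named after their values were seen. Of the 12, 6 stand in adjacent rows with another of them, as ENSCINT00000015475 with ENSCINT00000034861, ENSCINT00000017961 with ENSCINT00000030512, and ENSCINT00000002707 with ENSCINT00000035153, and whether these share reads was not tested. ENSCINT00000015475 held 1832, 4144 and 1877 CPM in NR and 113, 97.3 and 230.5 CPM at day 0. It held 488, 273 and 770.1 CPM at day 1, 422, 441 and 238.5 CPM at day 3, and 398, 701 and 409 CPM at day 8. Its mean was 5.61% of the NR mean at day 0 and 19.2% at day 8. ENSCINT00000033812 stood at 5.34% of the NR mean at day 0 and 17.1% at day 8, ENSCINT00000017961 at 5.01% and 19.4%, and ENSCINT00000030512 at 4.14% and 16.9%. In these 4 members, D3 replicate 3 was the lowest of the 9 later libraries.

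**Figure D5:**
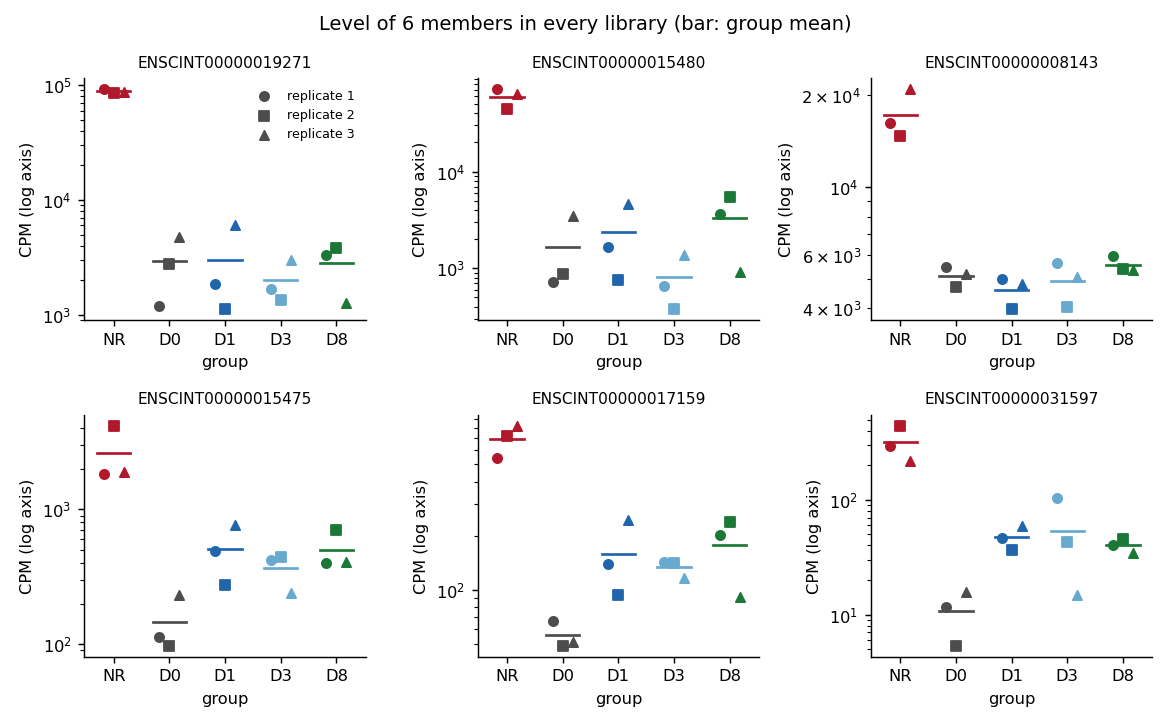
Level in CPM (log axis) of 6 members in every library, by group, with symbols for replicates 1 to 3 and a bar for the group mean. The upper 3 are the most counted members, in which day 0 overlaps each later stage, and the lower 3 are members with D0 libraries below most or all later ones; all NR libraries are above all others.

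Among members with values below those of day 0, none passed the test in edgeR. ENSCINT00000028754 held 61.0, 62.9 and 156 CPM at day 0 and 65.8, 69.0 and 34.0 CPM at day 8, with overlapping groups and a log2 fold change of -0.73 ± 0.447 (adjusted p = 0.484 in edgeR, 0.412 to 0.91 over 25 alternatives). Its value was 0.11 without the day libraries numbered 3. ENSCINT00000014813, given above, had a log2 fold change of -1.07 ± 0.604 at day 3 (adjusted p = 0.774 in edgeR, 0.0646 to 0.999 over 25 alternatives), the lowest value of any member in the 3 comparisons with day 0. ENSCINT00000028873 (day 1), ENSCINT00000012945 (day 3), ENSCINT00000005450 (day 8) and, for the mean of the later days, ENSCINT00000033529 had values of -0.69, -0.47, -0.64 and -0.69.

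Between consecutive stages, 0 members passed in edgeR from day 1 to day 3 and 0 from day 3 to day 8, where 0% of tested transcripts passed. At an unadjusted p under 0.05, 2 members were higher and 6 lower at day 3 than at day 1 (1.41% and 1.58% of tested transcripts), and 6 were higher and 0 lower at day 8 than at day 3 (1.13% and 1.83%). DESeq2 called 0 members in both (0.0393% and 0.0539% of transcripts with an adjusted p were called higher, 0.0327% and 0.108% lower), and so did limma voom, which called 0% of tested transcripts. Limma voom with library weights called 0 members higher and then 1, where 0% and 0.0326% of tested transcripts were called higher, and 0 members lower, where 0.00652% and 0.15% were. The D3 libraries lay wholly above the D1 libraries in 2 members and wholly below in 4 (4.25% and 4.76% of tested transcripts), and the D8 libraries wholly above the D3 libraries in 2 and wholly below in 1 (3.34% and 4.6%). The median log2 fold change of the members was -0.25 from day 1 to day 3 and 0.25 from day 3 to day 8. Over all tested transcripts it was 0.02 and -0.01. Members higher numbered 24 and 79, where 52.5% and 48.2% of tested transcripts were higher. From day 1 to day 3 the direction turned without the library labelled D1 replicate 3, to a median of 0.10 with 59 members higher. From day 3 to day 8 the median was 0.44 without the library labelled D8 replicate 3 and 0.10 without D8 replicate 2, with 85 and 65 members higher. Both comparisons use the D3 libraries.

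ENSCINT00000012660 had the lowest p from day 3 to day 8, with 5.50, 7.79 and 12.2 CPM at day 3 and 32.2, 36.4 and 11.4 CPM at day 8, where D8 replicate 3 lay inside the range of day 3. Its log2 fold change was 1.64 ± 0.547 (adjusted p = 1 in edgeR, 0.012 to 1 over 25 alternatives). Of these alternatives 1 passed, a set of libraries chosen after the data were seen. ENSCINT00000015480 had a log2 fold change of 2.04 ± 0.808 from day 3 to day 8 (adjusted p = 1 in edgeR, 0.0265 to 1 over 25 alternatives, of which 2 passed). ENSCINT00000031092 and ENSCINT00000013062 had values of -0.68 and -0.28. From day 1 to day 3, ENSCINT00000034893 and ENSCINT00000014278 had -0.82 and -0.78, and ENSCINT00000028873 and ENSCINT00000013062 had 1.34 and 0.48, none of which passed.

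Some members stood in neighbouring rows of the deposited table, whose order is not explained. There were 26 such members in 12 runs of at most 3. In 2 of these pairs the counts kept a nearly fixed ratio over all 15 libraries. ENSCINT00000035750 held 1.05 to 1.14 times the counts of ENSCINT00000031899, with 4182, 4857 and 4809 CPM in NR and 754 to 1094 CPM elsewhere. ENSCINT00000007921 held 0.954 to 1.09 times those of ENSCINT00000025965. Reads may be shared within these pairs, which was not tested, so each may be a single signal. No member agreed in counts with another transcript within 1% of its total.

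The same gap at a mean under 100 CPM was present in 102 transcripts. Those tested, 90 in number, had median log2 fold changes of 0.35, 0.10 and 0.28 at days 1, 3 and 8 against day 0. Of these 90, 4 (4.44%) had all D0 libraries below all later ones and 0 had them above, against 2.21% and 1.84% of all tested transcripts. Whether these shares differ was not tested.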

How the data were processed

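The authors deposited whole-number counts of reads for each transcript, not normalized. Per the submitters' processing notes, TopHat, Bowtie and HTSeq were used; their versions, roles and settings, the build, the annotation and strand use were not given in the sources used here. Transcripts that overlap, on either strand, may share reads. The 15 columns were matched to samples by title.

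Members were found from CPM scaled by TMM over all 17745 rows in edgeR 4.0.16 (R 4.3.3). Tests used a quasi-likelihood fit with a mean per group over all 15 libraries and robust estimation. The filter by expression with a minimum count of 10 kept 15328 transcripts, all 100 members among them, and the transcripts kept held no less than 99.9% of the counts in any library. P-values were two-sided and adjusted over these transcripts, with a threshold of 0.05. Standard errors were computed as the log2 fold change over the root of F. DESeq2 1.42.0 and limma 3.58.1 were alternatives, with other scalings, filters and sets of libraries. DESeq2 gave some transcripts no adjusted p, and these stayed out of its percentages.

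The members and lists were chosen with earlier results of these data known. Named members were the 10 of highest NR mean, the 5 of widest gap, those nearest the limits, the 2 most and least variable in NR, and, in each test with no call, the 2 of lowest p in each direction. Comparisons of NR with other groups used the contrast of the rule and were not tested.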

Additional observations from a re-analysis of the deposited data

How the results depend on the processing

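The 100 members became 40 with library totals alone, 196 with a ratio of at least 1.5 and 44 with a ratio of at least 3, and 100 to 145 with any single library left out. With library totals alone the median log2 ratio of NR to days 0, 1, 3 and 8 was 2.47, 1.95, 2.21 and 1.97 where TMM gave 2.89, 2.55, 2.71 and 2.55, and the median of all tested transcripts at days 1, 3 and 8 against day 0 shifted to 0.20, 0.12 and 0.15, with 0 members called. For day 0 the log2 ratio was 3.10 without D0 replicate 3, alone or with every day library numbered 3. It ran from 2.82 to 3.10 with a single NR library or D0 replicate 3 left out. For day 1 it was 2.80 in each set without D1 replicate 3.

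Calls of members, 0 in every comparison, became 9 at day 1, 1 at day 3, 9 at day 8 and 12 for the mean of the later days in DESeq2. It called 0.844%, 0.17%, 1.57% and 2.11% of transcripts higher there. In limma voom with library weights they became 12, 12, 35 and 23, with 1 from day 3 to day 8. That fit called 1.08%, 1.5%, 12%, 8.25% and 0.0326% of tested transcripts higher. Leaving out single day libraries gave 0 to 1 calls at day 8 (1 without D8 replicate 3, where 0.474% of tested transcripts were called). It gave 0 to 5 for the mean (5 without D3 replicate 3, where 1.93% were called) and 0 to 0 otherwise. Sets of libraries chosen after seeing the data gave more. Without replicate 3 of D1 and D8 there were 5 at day 8 (2.13% of tested transcripts) and 1 for the mean (0.232%); without replicate 3 of D1, D3 and D8 there were 3 at day 3 (1.66%), 15 at day 8 (6.3%) and 8 for the mean (5.18%). Without every day library numbered 3 there were 1, 9 and 27 at days 1, 3 and 8, 13 for the mean and 5 from day 3 to day 8, against 0.22%, 2.08%, 6.59%, 4.82% and 0.13% of tested transcripts. All calls were higher than the reference. The cause was not tested.

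ENSCINT00000028754 turned from -0.73 to 0.11 at day 8 without every day library numbered 3. ENSCINT00000033529 turned from -0.69 to 0.043 for the mean without D0 replicate 3 (-1.02 to 0.043 over single day libraries left out). The labels do not say that replicate numbers pair the libraries. Deviations of same-numbered libraries correlated above 0.1 in 4 of 18 pairs (-0.59 to 0.30), 3 of 12 libraries were nearest to their own number, and with the replicate block 0 members were called in each comparison.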
